A study of Mus musculus with 11 samples.

Results

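The genes described here are 10 members of the Bcl2 family of survival and death genes, namely Bcl2, Bcl2l1, Mcl1, Bax, Bak1, Bcl2l11, Bid, Bad, Bbc3 and Pmaip1. They were chosen by name, as 3 anti-apoptotic genes, 2 effectors and 5 BH3-only genes, out of 35896 genes with a transcript in the deposited tables. All 10 passed the filter on low counts and were among the 13749 genes tested. RNA was sequenced from thymocytes of mice whose strain is labelled C57BL/6J, sorted by flow cytometry at the DN2 and DN3 stages, at which the cells carry neither CD4 nor CD8. The 4 groups held 3 WT and 2 Arpp21-/- libraries at DN2, and 3 of either genotype at DN3. Arpp21 encodes an RNA-binding protein, and the knockout mice were 1 line made with CRISPR/Cas9, in which an exon of the long isoform was removed from the germline. Animals were between 6 weeks and 1 year of age, a range for all mice and not for each library, and no treatment was named. Nothing in the labels says that replicates of a group came from separate animals, so p values measure the spread between these samples, which may be technical.

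Proteins of this family decide at the outer membrane of the mitochondrion whether a cell survives. Bcl2, Bcl-xL and Mcl1 hold the effectors Bax and Bak in check, while BH3-only proteins such as Bim and Puma bind the survival proteins or the effectors and so set off membrane permeabilization, release of cytochrome c and activation of caspases. Early thymocytes depend on IL-7 receptor signals that maintain Bcl2, and cells that fail to make a T cell receptor β chain at DN3 die by apoptosis.

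Counts are the authors' kallisto estimates of read pairs per transcript, summed here per gene, and CPM are counts scaled to the library total with TMM, a normalization for library composition. Groups were compared by the quasi-likelihood test of edgeR, two-sided, in 1 fit to all 11 libraries. Standard errors (SE) are of log2 fold changes, p values were adjusted over all 13749 genes by Benjamini and Hochberg's method, and a gene was called below an adjusted p of 0.05. The total estimated count was between 14531762, in DN3 Arpp21-/- replicate 3, and 63109504, in DN2 Arpp21-/- replicate 2. The TMM factors of these libraries, 0.861 and 0.6, were the lowest. DN2 Arpp21-/- replicate 2 and DN3 Arpp21-/- replicate 3 stood apart from the other 9 libraries by a trend over transcript length. The trend was measured from the mean over all libraries of the same stage, both genotypes together. At a length of 1107 bases, the 10th percentile of 9586 genes, the log2 level of both libraries deviated by 1.16 and 0.60. At 5509 bases, the 90th percentile, it deviated by -1.64 and -0.89. The other libraries deviated by -0.41 to -0.04 at the short and by 0.13 to 0.52 at the long end. Knockout values of Bcl2, Mcl1, Bax, Bcl2l11, Bbc3, Bid and Bad are therefore given also without both libraries, which leaves 1 library for DN2 Arpp21-/- that is assumed to vary like the other groups, and with an offset for this trend. For Arpp21 itself, DN3 WT replicates 1, 2 and 3 showed 386, 336 and 312 CPM, and their Arpp21-/- counterparts overlapped with them at 335, 221 and 142. At DN2 the WT values were 183, 125 and 136 CPM, and those of Arpp21-/- were 86.9 and 28.5. A sum over the 31 transcripts of the gene cannot show that 1 exon is missing and is no check of the genotype.

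All 5 markers of DN3 thymocytes tested (Ptcra, Rag1, Rag2, Cd3e and Notch3) were higher in DN3 than in DN2 WT, and their summed level was 3120 to 3240 CPM against 213 to 313 CPM. Of 5 DN2 markers, Cd44 was lower and the others did not pass the test. Of 7 myeloid markers Tyrobp and Fcer1g were lower in DN3 WT. The summed level of all 7 was 29.9 to 36.8 CPM in DN3 WT against 114 to 159 CPM in DN2 WT. The 2 DN2 Arpp21-/- libraries held 134 and 357 CPM, the lower of them within the range of DN2 WT. Of 7 markers of cells after β selection Cd28 was higher, while the median log2 difference of all 7 was -0.13. Their summed level overlapped, at 855 to 942 CPM in DN3 WT and 820 to 1190 CPM in DN2 WT. Of 4 NK cell markers Gzma, the 1 tested, was higher. None of 6 DP markers passed, though their summed level was 405 to 501 CPM in DN3 WT against 126 to 151 CPM in DN2 WT. Nor did any of the 3 tested of 6 γδ T cell markers pass. The summed level of all 6 was 259 to 294 CPM in DN3 WT against 201 to 241 CPM in DN2 WT. The median log2 differences were 1.6 for the DP markers and -0.01 for the 3 tested γδ T cell markers. Rag2 no longer passed with genotype and replicate number as a block (adjusted p = 0.0514 by edgeR), and neither Notch3 nor Gzma did when any 1 of the 6 WT libraries was left out (0.0625 to 0.108). Of 5 B cell markers only Cd79b passed the filter on low counts, at 38.4 to 71.6 CPM, while Cd79a, Ms4a1, Ebf1 and Pax5 did not pass it. The part of these cells in the results on the family was not tested. In bulk RNA fewer cells of a type and less RNA per cell cannot be told apart.

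None of the 10 members was called in any of the 4 comparisons. Between DN3 and DN2 WT 566 of all genes (4.12%) were called, and at an unadjusted p under 0.05 Bcl2l1 was the only member, 1 of 10 against 13.6% of all genes. With genotype and replicate number as a block, which pairs the WT libraries of the same number over the stages, 216 genes and no member were called. In DN3 Arpp21-/- against WT 1 gene (0.00727%) was called, and no member had an unadjusted p under 0.05 against 1.56% of all genes. In DN2 Arpp21-/- against WT 0 genes (0%) were called, and 3 of 10 members, Bcl2, Bax and Bad, had an unadjusted p under 0.05 against 14.7% of all genes. For the difference of the knockout effect between the stages, tested as an interaction, 0 genes (0%) were called, and 0 members against 2.71% of all genes had an unadjusted p under 0.05. DESeq2 and limma-trend on TPM called 0 of 10 members in each of these comparisons as well. By another count, the libraries of both groups did not overlap for 3 members between the WT stages, against 34.8% of all genes. The same held for 2 members in DN3 Arpp21-/- against WT (10.5% of all genes) and for 3 in DN2 Arpp21-/- against WT (15.8%). With 10 members such counts describe the genes concerned and are no result about the family.

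**Figure D1:**
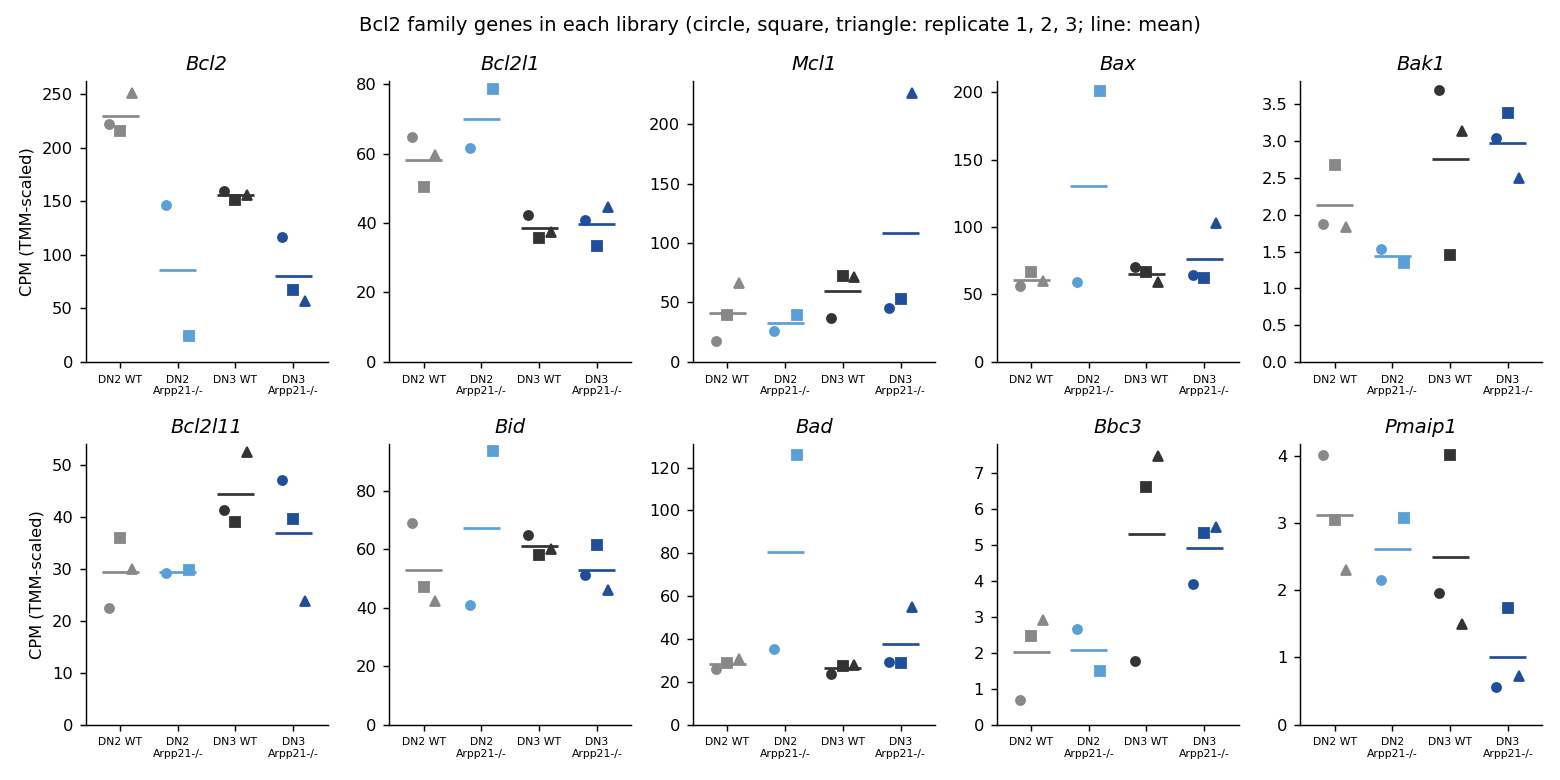
CPM of the 10 genes (vertical axes, each starting at 0) in the 11 libraries by group, with the replicate number as the symbol and a line at each group's mean. Bcl2 is lowest in DN2 Arpp21-/- replicate 2 at 23.9 CPM, where Bax, Bid and Bad are highest at 201, 93.6 and 126 CPM, and Mcl1 is highest in DN3 Arpp21-/- replicate 3 at 226 CPM.

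Levels of different genes were compared by TPM, which divides counts by transcript length. Bax, an effector that makes the pore, had the highest level of the 10 genes in every group, with 113 to 119 TPM in DN2 WT and 127 to 146 TPM in DN3 WT libraries. In DN2 WT Bcl2 came next at 44.9 to 63.2 TPM, and above Bad at 40.4 to 44.6 TPM, while Bad, Bcl2l1 (31.8 to 42.5 TPM) and Bid (28.2 to 49.6 TPM) overlapped. In DN3 WT Bid (41.0 to 47.5 TPM), Bcl2 (41.0 to 45.3 TPM) and Bad (37.9 to 46.7 TPM) overlapped. Bcl2l1 at 27.5 to 31.4 TPM lay below them and overlapped with Mcl1 at 16.4 to 34.2 TPM. Bcl2l11 had 8.75 to 12.9 TPM in DN2 WT and 15.4 to 25.1 TPM in DN3 WT. The lowest were Bbc3, Bak1 and Pmaip1, which overlapped in both WT groups and stayed under 10 TPM, with Bak1, the other effector, at 1.07 to 2.98 TPM in DN3 WT.

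Among the anti-apoptotic genes, Bcl2 (ENSMUSG00000057329.7, chr1:106538178-106714274, minus strand, GRCm38) stood at 222, 216 and 251 CPM in replicates 1, 2 and 3 of DN2 WT. In those of DN3 WT it stood at 160, 151 and 156 CPM. Every DN3 WT library was below every DN2 WT library. The log2 difference of DN3 from DN2 was -0.56 (SE 0.527, adjusted p = 0.859 by edgeR), or 1.47-fold lower. Fitted to the WT libraries alone, where the spread of the Arpp21-/- libraries does not enter, it was -0.57 (SE 0.0974, adjusted p = 0.00767 by edgeR), and Bcl2 and Bcl2l1 were the 2 of 10 members called against 16% of genes. With the offset for the length trend the difference was -0.29 (SE 0.229, adjusted p = 0.564 by edgeR). The trend is measured from the mean over both genotypes of a stage, so this value is not free of the Arpp21-/- libraries. At 5509 bases the DN2 WT libraries deviated by 0.32 to 0.52 and the DN3 WT libraries by 0.13 to 0.25.

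In the knockout, the DN3 libraries held 117, 66.8 and 57.0 CPM of Bcl2 and the DN2 libraries 147 and 23.9 CPM. At both stages all Arpp21-/- libraries lay below those of WT, and the replicate with the steepest loss of long transcripts was the lowest. The group means were 80.3 ± 32.3 CPM (SD, n = 3) against 156 ± 4.15 CPM (SD, n = 3) in DN3 and 85.3 ± 86.9 CPM (SD, n = 2) against 229 ± 18.7 CPM (SD, n = 3) in DN2. The log2 fold changes were -0.95 in DN3 (SE 0.531, adjusted p = 1 by edgeR) and -1.43 in DN2 (SE 0.618, unadjusted p = 0.0431 and adjusted p = 0.338 by edgeR). The interaction was 0.47 (SE 0.792, adjusted p = 0.965 by edgeR), so a difference of the knockout effect between the stages was not shown.

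The size of the Bcl2 difference depended on the libraries that stood apart. Without both of them the log2 fold change was -0.76 in DN3 (SE 0.206, adjusted p = 0.588 by edgeR). In DN2, where 1 Arpp21-/- library was then left, it was -0.62. With the offset for the length trend it was -0.57 in DN3 and -0.79 in DN2 (SE 0.23 and 0.262). With sample quality weights in limma voom, which weight each library by its estimated spread, the DN3 value was -0.99 (SE 0.185, adjusted p = 0.0320 by limma). Bcl2 was then the 1 member called against 0.858% of genes. DN3 Arpp21-/- replicates 1, 2 and 3 had weights of 1.94, 5.18 and 0.242, so replicate 2, at 66.8 CPM, counted most. Both DN2 Arpp21-/- replicates had low weights, 0.0944 and 0.109. Without DN2 Arpp21-/- replicate 1, when replicate 2 alone stands for its group and is assumed to vary like the others, the DN2 value was -3.27 (adjusted p = 0.00264 by edgeR). Bcl2, Bax, Bid and Bad were then called in DN2, 4 of 10 members against 46.2% of all genes, and Bcl2, Bax and Bad for the interaction, 3 of 10 against 25% of all genes. Over the 16 alternatives run in DN3 the value stayed between -1.33 and -0.57, and over the 15 in DN2 between -3.27 and -0.62.

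**Figure D2:**
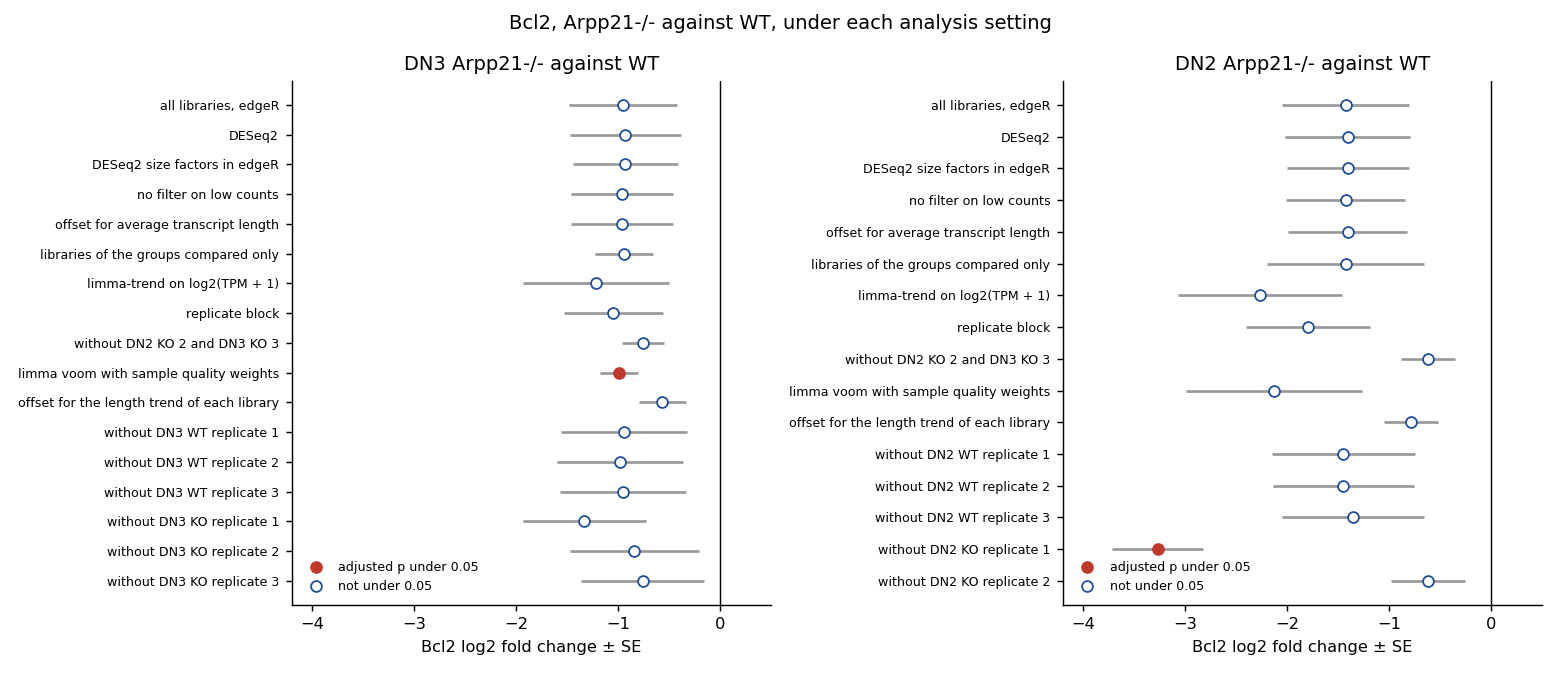
Log2 fold change of Bcl2 with its SE (horizontal axes) in Arpp21-/- against WT, in DN3 (left) and DN2 (right), for the fit to all libraries and each alternative. All values are below 0, between -1.33 and -0.57 in DN3 and between -3.27 and -0.62 in DN2, and filled points mark the 2 settings with an adjusted p under 0.05.

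Bcl2 has 2 transcripts in the tables, one of 7191 and one of 2841 bases. In DN2 Arpp21-/- the longer, Bcl2-201, held 126 CPM in replicate 1 and 15.6 CPM in replicate 2, and the shorter, Bcl2-202, held 20.6 and 8.30 CPM. The longer one took 78.4% to 89.8% of the Bcl2 count in the WT libraries and 65.3% in DN2 Arpp21-/- replicate 2, the lowest share of all. At DN3 the values of Bcl2-201 were 129, 119 and 124 CPM for WT, against 93.2, 57.3 and 41.2 CPM for Arpp21-/- replicates. Those of Bcl2-202 were 30.3, 32.6 and 32.5 CPM against 24.0, 9.47 and 15.8 CPM. Both transcripts were thus lower in each DN3 Arpp21-/- library than in each DN3 WT library. How reads are shared between both is kallisto's estimate.

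Bcl2l1 (ENSMUSG00000007659.18, chr2:152780668-152831728), which encodes the survival protein Bcl-xL, had 64.8, 50.4 and 59.6 CPM in DN2 WT and 42.4, 35.6 and 37.4 CPM in DN3 WT replicates. The groups did not overlap. The log2 difference of DN3 from DN2 was -0.60 (SE 0.237, unadjusted p = 0.0295 and adjusted p = 0.272 by edgeR), or 1.51-fold lower. It was past the threshold at an adjusted p of 0.0306 by edgeR fitted to the WT libraries alone, 0.0305 by edgeR without both libraries that stood apart and 0.0163 by limma voom with quality weights. Bcl2l1 was the only member called by the latter pair of fits, which called 15.4% and 16.9% of all genes. The knockout libraries held 61.5 and 78.6 CPM of Bcl2l1 in DN2 and 40.9, 33.3 and 44.5 CPM in DN3, overlapping with WT at each stage. The log2 fold changes of the knockout were 0.27 (SE 0.262) in DN2 and 0.04 (SE 0.236) in DN3, with adjusted p values of 0.602 and 1 by edgeR. Its chief transcripts, Bcl2l1-201 and Bcl2l1-202, took 13.3% to 72.3% and 14.3% to 78.2% of the gene's count.

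Mcl1 (ENSMUSG00000038612.16, chr3:95658788-95663176), a short-lived survival protein, had 18, 39.6 and 66.8 CPM in DN2 WT and 36.6, 72.5 and 71.1 CPM in DN3 WT replicates 1, 2 and 3. The groups overlapped, while within each of the 3 pairs of the same number DN3 was higher. The log2 difference was 0.53 (SE 0.655, adjusted p = 0.941 by edgeR) and 0.66 (SE 0.293, adjusted p = 0.442 by edgeR) with genotype and replicate number as a block. Mcl1 in Arpp21-/- libraries was at 26.4 and 39.5 CPM in DN2 and 45.2, 53.3 and 226 CPM in DN3. The DN3 value of 0.85 (SE 0.658, adjusted p = 1 by edgeR) rested on replicate 3, and without that library it was -0.29. Without both libraries that stood apart the values were -0.64 in DN2 and -0.30 in DN3, and with the offset for the length trend 0.32 and 1.18 (SE 0.859 and 0.782). Of 3 genes for Mcl1 turnover none passed the test in any comparison. The 2 with the highest mean TPM were Usp9x, a deubiquitinase that stabilizes Mcl1, at 21.3 to 286 CPM, and Huwe1, a ubiquitin ligase for it, at 22.8 to 142 CPM. Both were lowest in the libraries that stood apart.

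**Figure D3:**
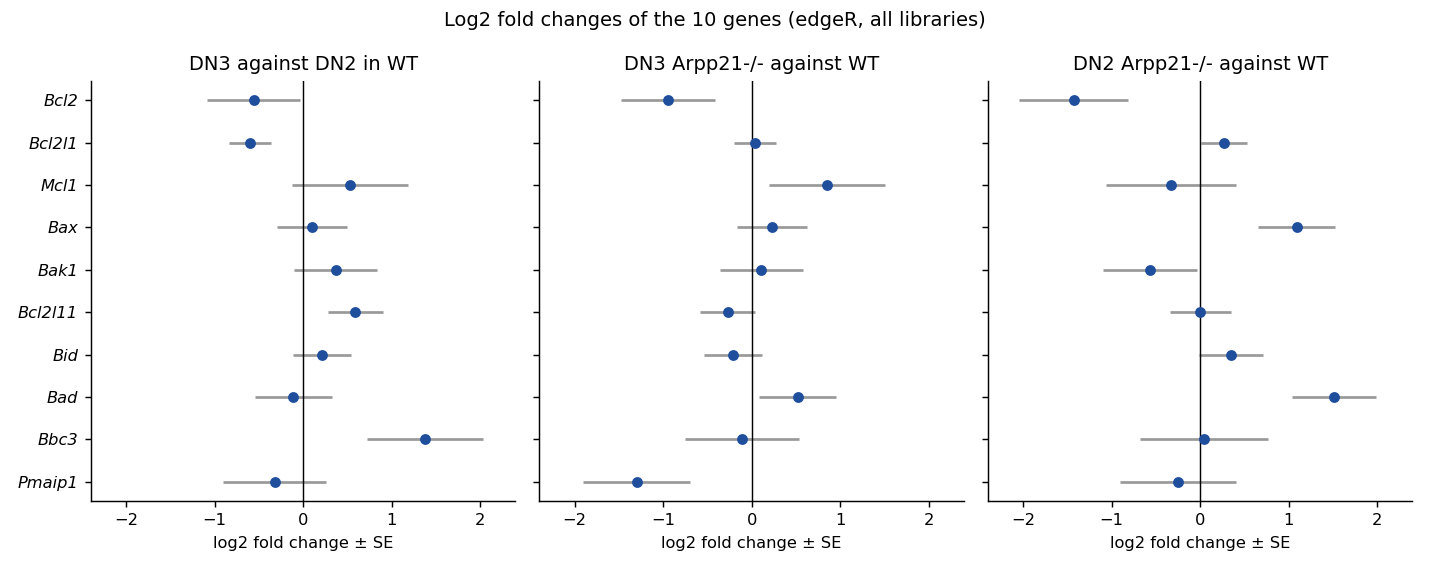
Log2 fold changes (horizontal axes) with SE of the 10 genes (vertical axis) in the 3 comparisons. Bcl2 and Bcl2l1 lie at -0.56 and -0.60 between DN3 and DN2 WT, Bbc3 at 1.38, and Bcl2 at -0.95 and -1.43 in Arpp21-/- against WT, while none had an adjusted p under 0.05.

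Of the effectors, Bax (ENSMUSG00000003873.11, chr7:45461697-45466898) had 56.5, 66.6 and 60.0 CPM in DN2 WT and 70.4, 67.0 and 59.0 CPM in DN3 WT. Among Arpp21-/- libraries it had 59.3 and 201 CPM in DN2 and 64.6, 62.3 and 103 CPM in DN3. Apart from the libraries that stood apart, every value was between 56.5 and 70.4 CPM, and the groups overlapped. The main transcript, Bax-201, is 867 bases long. In DN2 the log2 fold change of 1.09 (SE 0.440, unadjusted p = 0.0320 and adjusted p = 0.336 by edgeR) was -0.02 without both libraries that stood apart and 0.03 with the offset for the length trend, and the DN3 value was -0.05 and -0.08. Bax in TPM was 118 and 142 in DN2 Arpp21-/- against 113 to 119 in DN2 WT. Bak1 (ENSMUSG00000057789.14, chr17:27019810-27029009), whose product can stand in for Bax, had 1.34 to 3.70 CPM over all libraries. Its values in DN2 Arpp21-/-, 1.53 and 1.34 CPM, were below the 1.84 to 2.68 CPM of DN2 WT, and the fitted difference was -0.57 on the log2 scale (SE 0.533, adjusted p = 0.588 by edgeR). By kallisto's estimate the protein-coding Bak1-202 took 100% of the gene's count in DN3 WT replicate 3 and 0% to 41.4% in the other libraries. The rest fell on Bak1-201 and Bak1-204, annotated for nonsense-mediated decay, so the sum may not stand for mRNA that makes the protein.

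Among the BH3-only genes, Bcl2l11 (ENSMUSG00000027381.16, chr2:128126038-128162547), which encodes Bim, had 22.5, 35.8 and 29.9 CPM in DN2 WT and 41.3, 39.0 and 52.5 CPM in DN3 WT. Every DN3 WT library was above every DN2 WT library. The log2 difference was 0.59 (SE 0.309, unadjusted p = 0.0851 and adjusted p = 0.487 by edgeR), or 1.51-fold higher, and over 17 alternatives it was between 0.43 and 0.76 with no adjusted p below 0.0850. Knockout values of Bcl2l11 were 29.1 and 29.7 CPM in DN2 and 47.0, 39.5 and 23.8 CPM in DN3. These overlapped with WT, with log2 fold changes of 0.00 (SE 0.345) in DN2 and -0.27 (SE 0.309) in DN3 and adjusted p values of 1 by edgeR in both. Without both libraries that stood apart the values were 0.01 and -0.04. With the offset for the length trend they were 0.95 in DN2 (SE 0.408, adjusted p = 0.377 by edgeR) and -0.07 in DN3. The transcript Bcl2l11-205, 5036 bases long, took 50.2% to 80.8% of the gene's count.

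Bbc3 (ENSMUSG00000002083.13, chr7:16308393-16318205), which encodes Puma, a target of p53, had 0.697, 2.45 and 2.91 CPM in DN2 WT and 1.78, 6.61 and 7.47 CPM in DN3 WT replicates 1, 2 and 3. The groups overlapped, since replicate 1 was the lowest at both stages, and within each pair of the same number DN3 was higher. The log2 difference was 1.38 (SE 0.656, unadjusted p = 0.0606 and adjusted p = 0.413 by edgeR), or 2.61-fold higher, and 1.38 (SE 0.491, adjusted p = 0.312 by edgeR) with genotype and replicate number as a block. In Arpp21-/- libraries it had 2.67 and 1.5 CPM in DN2 and 3.91, 5.34 and 5.49 CPM in DN3, within the range of WT at each stage. The log2 fold changes of the knockout were 0.04 (SE 0.723) in DN2 and -0.11 (SE 0.642) in DN3, with adjusted p values of 0.978 and 1 by edgeR. Without both libraries that stood apart they were 0.42 and -0.21, and with the offset for the length trend -0.21 and -0.24.

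The windows before the start sites of Bcl2, Bcl2l11 and Bbc3 are shown as examples. By group means Bcl2 was lower and Bcl2l11 and Bbc3 higher in DN3 WT. Bcl2l1, Bad and Pmaip1 were lower too, and Mcl1, Bax, Bak1 and Bid higher. The printed windows hold the 250 bases upstream of a start in the RefSeq promoter table (GRCm38.p6), 5′ to 3′ on the gene's strand. They belong to the 1 start of Bcl2, the first of 2 of Bcl2l11 and the second of 3 of Bbc3. For Bcl2l11 and Bbc3 these are the windows with a Foxo match, and their other windows held none of the motifs searched. The choice thus allows no link between motif and level to be read. Capitals mark the Foxo motif GTAAACA or its reverse complement, and in Bbc3 also the E protein motif CACCTG on either strand.
Bcl2 (chr1:106714291-106714540, minus strand): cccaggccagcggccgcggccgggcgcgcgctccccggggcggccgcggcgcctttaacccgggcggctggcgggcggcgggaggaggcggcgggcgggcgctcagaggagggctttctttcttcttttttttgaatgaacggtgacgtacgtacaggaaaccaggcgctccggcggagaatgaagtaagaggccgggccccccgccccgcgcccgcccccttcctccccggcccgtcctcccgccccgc
Bcl2l11 (chr2:128125788-128126037, plus strand): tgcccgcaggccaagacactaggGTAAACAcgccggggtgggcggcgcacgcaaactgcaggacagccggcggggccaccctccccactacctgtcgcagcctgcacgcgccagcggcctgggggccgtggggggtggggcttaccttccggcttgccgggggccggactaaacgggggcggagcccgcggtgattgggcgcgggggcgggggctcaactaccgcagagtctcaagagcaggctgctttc
Bbc3 (chr7:16310011-16310260, plus strand): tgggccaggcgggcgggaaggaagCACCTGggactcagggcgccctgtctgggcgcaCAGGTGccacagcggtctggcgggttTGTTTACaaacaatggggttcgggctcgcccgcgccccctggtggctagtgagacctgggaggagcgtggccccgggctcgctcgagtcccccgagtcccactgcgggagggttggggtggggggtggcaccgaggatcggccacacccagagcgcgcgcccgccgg
The Foxo motif stood in 2 of the 15 windows of 9 members, those printed for Bcl2l11 and Bbc3, and in 3.17% of the 32851 windows of all genes. The E protein motif stood in 2 member windows, of Bad and Bbc3, and in 17.2% of all. The Runx motif TGTGGT stood in 1, of Bak1, and in 14% of all, and the STAT motif TTCNNNGAA in 0 member windows and 7.02% of all. Matches of different motifs did not overlap. A match describes the letters of the window and is not a measured binding site, and a window without one says nothing of the factor. Of 9 genes for transcription factors that act on the family, Egr1, an immediate early gene, was higher in DN3 than in DN2 WT with 24.6, 40.7 and 47.0 CPM against 0.610, 0.00 and 1.19 CPM (log2 difference 5.93, SE 1.14, adjusted p = 0.0163 by edgeR), and the others did not pass. With genotype and replicate number as a block its adjusted p was 0.0677 by edgeR, and it was 0.0596 to 0.0761 without DN2 WT replicate 1, DN3 WT replicate 2 or DN3 WT replicate 3.

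Bid (ENSMUSG00000004446.12, chr6:120891930-120916853), which caspase 8 cleaves and so links death receptors to mitochondria, had 42.5 to 68.9 CPM in DN2 WT and 58.2 to 64.9 CPM in DN3 WT. Its Arpp21-/- values were 41.0 and 93.6 CPM in DN2 and 46.1 to 61.4 CPM in DN3. All groups overlapped with their WT, and the log2 fold changes were 0.35 (SE 0.365) in DN2 and -0.21 (SE 0.329) in DN3. Without both libraries that stood apart Bid turned to -0.34 in DN2 and was -0.12 in DN3, and with the offset for the length trend it was 0.21 and -0.21. Leaving out 1 library in turn gave -0.35 to 0.81 in DN2. Bad (ENSMUSG00000024959.14, chr19:6941861-6951899), which survival kinases hold inactive by phosphorylation, had 25.8, 28.9 and 30.5 CPM in DN2 WT and 23.8, 27.4 and 27.6 CPM in DN3 WT. In Arpp21-/- libraries it had 35.5 and 126 CPM in DN2 and 29.3, 28.7 and 55.0 CPM in DN3, above every WT library of the stage. The log2 fold changes were 1.51 in DN2 (SE 0.477, unadjusted p = 0.00999 and adjusted p = 0.336 by edgeR) and 0.52 in DN3 (SE 0.434, adjusted p = 1 by edgeR). Without both libraries that stood apart they were 0.34 and 0.14, and with the offset for the length trend 0.54 and 0.23. The transcript with most of its count, Bad-202, is 990 bases long.

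Pmaip1 (ENSMUSG00000024521.8), which encodes Noxa, a partner of Mcl1, stood at 4.01, 3.05 and 2.30 CPM in DN2 WT. For DN3 the WT values were 1.96, 4.01 and 1.5 CPM, and those of Arpp21-/- 0.558, 1.74 and 0.726 CPM. These groups overlapped by 1 library of either genotype. The log2 fold change in DN3 Arpp21-/- was -1.30 (SE 0.601, unadjusted p = 0.0556 and adjusted p = 1 by edgeR), and it was between -1.96 and -0.58 over 16 alternatives. In DN2 Arpp21-/- it had 2.16 and 3.07 CPM, with a log2 fold change of -0.25 (SE 0.652). At these levels a library held few counts, since 3 counts, the upper limit that a count of 0 allows, are 0.0802 to 0.242 CPM.

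The TPM of Bcl2 divided by that of Bcl2l11 was 6.55, 3.46 and 4.98 in DN2 WT and 2.44, 2.67 and 1.81 in DN3 WT replicates. It was 2.52 and 0.451 in DN2 Arpp21-/- and 1.73, 0.995 and 1.60 in DN3 Arpp21-/- replicates. The ratio was thus lower in every DN3 WT than in every DN2 WT library, and lower in every Arpp21-/- library than in the WT libraries of the same stage. It was formed from genes whose values were already known and is given without a test. Both genes have long main transcripts, and DN2 Arpp21-/- replicate 2, with the lowest ratio, was a library with the length trend. In DN3 Arpp21-/- the lowest ratio, 0.995, was that of replicate 2, which did not stand apart by this trend. Replicate 3, which did, had 1.60.

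**Figure D4:**
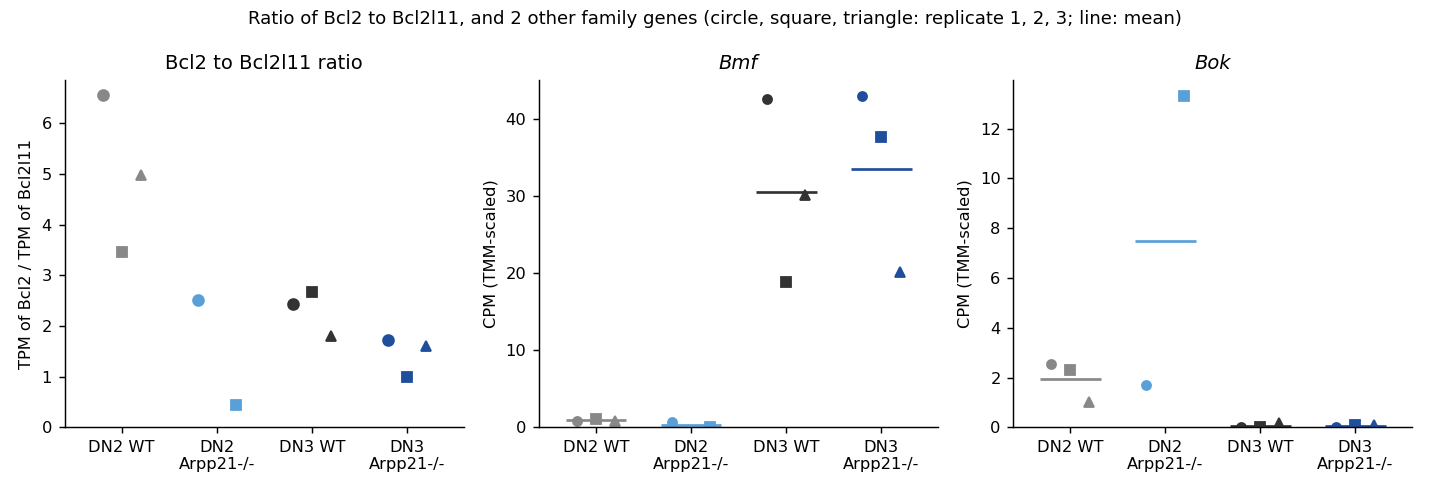
Ratio of the TPM of Bcl2 to that of Bcl2l11 (left) and CPM of Bmf (middle) and Bok (right) in each library, by group, with vertical axes starting at 0. The ratio is 3.46 to 6.55 in DN2 WT and 1.81 to 2.67 in DN3 WT, and Bmf goes from at most 1.05 CPM in every DN2 library to at least 18.8 CPM in every DN3 library.

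Of 15 other genes of the family 11 were tested. Bmf, a BH3-only gene whose product is held at the cytoskeleton until cells are stressed, was the one called. It had 0.828, 1.05 and 0.843 CPM in DN2 WT and 42.6, 18.8 and 30.1 CPM in DN3 WT, a log2 difference of 5.07 (SE 0.723, adjusted p = 0.00382 by edgeR). The difference was 5.00 with genotype and replicate number as a block (adjusted p = 0.0320 by edgeR), and with an offset for average transcript length 3.75 (adjusted p = 0.0574 by edgeR). Knockout values were 0.669 and 0.0535 CPM in DN2 and 42.9, 37.6 and 20.1 CPM in DN3, overlapping with WT in DN3. Bok, a relative of Bax, was named after its values were seen. It had 2.53, 2.32 and 1.04 CPM in DN2 WT and 0.00, 0.00 and 0.177 CPM in DN3 WT (adjusted p = 0.0720 by edgeR) and 13.3 CPM in DN2 Arpp21-/- replicate 2. Bcl2a1b and Bcl2a1d are near-identical copies, so their counts, at most 1.05 CPM, are uncertain. Hrk, Bcl2l10, Bcl2l15 and Bcl2a1a did not pass the filter. The median log2 difference of the 11 genes between the WT stages was -0.22, against 0.01 over all genes.

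Around the family 4 further lists were tested between the WT stages, where 4.12% of all genes were called. Of 12 genes of the apoptosome, caspases and their inhibitors Casp9, the initiator caspase of the mitochondrial pathway, was lower in DN3 with 10.3, 10.9 and 10.3 CPM against 19.4, 25.0 and 25.5 CPM in DN2 (log2 difference -1.16, SE 0.264, adjusted p = 0.0375 by edgeR). Of 9 genes of the IL-7 receptor pathway Pim1, a survival kinase induced by cytokines, was lower with 3.61, 5.37 and 4.64 CPM against 15.9, 25.5 and 31.6 CPM (log2 difference -2.42, SE 0.335, adjusted p = 0.00337 by edgeR). The other genes of both lists did not pass, and the medians over all 12 and all 9 genes were -0.23 and -0.25. Of 8 genes of the death receptor pathway Casp8, the initiator caspase there, was lower with 108, 91.6 and 94.9 CPM against 202, 191 and 173 CPM (log2 difference -0.94, SE 0.200, adjusted p = 0.0273 by edgeR). With genotype and replicate number as a block Pim1 was still past the threshold (adjusted p = 0.0316 by edgeR), while Casp9 and Casp8 were not (0.145 and 0.137). When any 1 of the 6 WT libraries was left out, the adjusted p by edgeR was 0.0569 to 0.172 for Casp9 and 0.0697 to 0.153 for Casp8.

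Of 10 tested genes of the p53 pathway Trp53inp1, a p53 target that promotes cell death and autophagy, was higher in DN3 WT with 738, 655 and 674 CPM against 295, 263 and 301 CPM in DN2 WT (log2 difference 1.27, SE 0.222, adjusted p = 0.0104 by edgeR). The adjusted p was 0.0833 by edgeR with genotype and replicate number as a block, and it was 0.0523 to 0.0654 without DN2 WT replicate 2, DN3 WT replicate 1 or DN3 WT replicate 3. In Arpp21-/- libraries it had 163 and 197 CPM in DN2 and 515, 369 and 490 CPM in DN3, below every WT library of the stage. The log2 fold changes in the knockout were -0.67 (SE 0.249, adjusted p = 0.336 by edgeR) in DN2 and -0.59 (SE 0.219, adjusted p = 1 by edgeR) in DN3. None of the genes in these lists was called in an Arpp21-/- comparison, where 0.00727% of all genes were called in DN3 and 0% in DN2. Of the 12 apoptosome and caspase genes 3 had an unadjusted p under 0.05 in DN2, against 14.7% of all genes, and 0 in DN3, against 1.56% of all genes.

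The genes whose log2(CPM + 1) followed that of Bcl2 most closely over the 11 libraries, out of 8505 genes, were Edem3 (Pearson's r = 0.975), Parp8 (0.966) and Atp2b4 (0.965). For Bcl2l11 they were Map3k2 (0.883), Sec22c (0.871) and Nprl3 (0.868). The points share the libraries with the length trend and the step between the stages, and the correlations are given as a description.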

How the data were processed

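RNA from 11 libraries of sorted DN2 and DN3 thymocytes, WT or Arpp21-/-, was prepared with SmartSeq V4 and Nextera and read as 150 bp pairs, per the labels. The authors deposited, per transcript and library, estimated counts without normalization and TPM, both made by kallisto 0.46 from GRCm38 with Ensembl 101, and effective lengths, another unit in bases, as deposited. Transcript identifiers were looked up in GENCODE M21, which left 0.959% to 1.09% of counts per library unmatched and unused. Gene counts are the rounded sums over transcripts.

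Genes were kept by filterByExpr (minimum count 10, minimum total 15). The quasi-likelihood model of edgeR 4.0.16 (R 4.3.3), with TMM factors, had 1 term for each of the 4 groups. SE are the absolute log2 fold change over the square root of F and are approximate. The alternatives were DESeq2 1.42.0, its size factors, no filter, an offset for average transcript length, the compared groups alone, limma-trend (limma 3.58.1) on log2(TPM + 1) of 12539 genes with 1 TPM in at least 2 libraries, the replicate number or genotype and replicate number as a block, leaving out both libraries with a length trend, voom quality weights, and each library left out in turn. An offset for the length trend of each library, measured from the mean over both genotypes of its stage, was added after seeing the data. The edgeR fit was also run on simulated counts. Their dispersion was set far below that estimated here, and no library was given a length trend. The run therefore gives no power or error rate for these data.

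The labels give replicate numbers and do not state that same-numbered WT libraries of both stages are pairs. They were treated as pairs in the alternative with genotype and replicate number as a block. The deviations of same-numbered DN2 and DN3 WT libraries from their group means correlated with r = 0.72, 0.29 and 0.58 over 8505 genes. Same-numbered DN2 WT and DN3 Arpp21-/- libraries, which differ in genotype, gave r = 0.56, -0.3 and 0.28. WT libraries of different numbers were not compared, so these values do not establish a pairing. With genotype and replicate number as a block, 216 genes were called between the WT stages against 566, and no member in either fit.

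Members and gene lists were chosen with earlier results of these data known. The genes named are the members, Arpp21, the called genes of each list or else the 2 with the highest mean TPM, and the 3 genes most like Bcl2 and Bcl2l11 among those with a mean of at least 10 CPM. The libraries held a median of 21501831 estimated counts. Tables and plots were made with Python 3.11.15, pandas 2.3.3, numpy 2.4.6 and matplotlib 3.10.9.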

Additional observations from a re-analysis of the deposited data

How the results depend on the processing

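Of 690 values of members under 22 other settings, 623 kept their direction and their side of the threshold, 12 came past it and 55 changed sign, none of the latter called. Those that changed sign include Bcl2l11 in DN2 Arpp21-/-, whose value was 0.00 in the fit to all libraries and has no clear direction. Only 2 of its 15 alternatives shared its sign. No member value in the comparison of the WT stages changed sign, with the exception of Bax (-0.08 with the offset for the length trend). That offset was added after seeing the data and depends also on the Arpp21-/- libraries. The counts of called genes moved more. DESeq2 called 16 genes in DN3 Arpp21-/- against WT, 38 in DN2, 1191 between the WT stages and 10 for the interaction, against 1, 0, 566 and 0. Fits to the compared groups alone called 0 in DN3 and 2000 between the stages, voom quality weights 118 and 2324, the fit without both libraries that stood apart 5 and 2230, and the length trend offset 2 and 1059, with 1 in DN2. With 1 library left out in turn the counts were 0 to 0 in DN3, 0 to 6773 in DN2, 243 to 389 between the stages and 0 to 3661 for the interaction. The highest in DN2 and for the interaction came without DN2 Arpp21-/- replicate 1, and between the stages every WT library left out but DN2 WT replicate 1 moved the count by over 1.5 times. The common dispersion was 0.281, and 0.104 without both libraries that stood apart, and the cause of the other moves was not tested.

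Across genotypes same-numbered libraries did not all deviate together (r = 0.5, -0.32 and 0.17 in DN3, 0.3 and 0.37 in DN2), and the numbers are taken as names there. With the replicate block 0 genes were called in DN3 and in DN2 and 444 between the WT stages, no call of a member changed, and Mcl1 in DN2 (0.28) and Bbc3 in DN3 (0.08) changed sign. Same-numbered Arpp21-/- libraries correlated over the stages with r = 0.76 and -0.79, and the labels do not state that the numbers pair them. With genotype and replicate number as a block, which pairs them nonetheless, 216 genes were called between the stages, and Mcl1 for the interaction changed sign (-0.06).

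Log2 fold changes of members that changed sign were between -0.41 and 0.95 in fits that kept all libraries. Without both libraries that stood apart they were those of Bcl2l1 (-0.06), Mcl1 (-0.30) and Bax (-0.05) in DN3 Arpp21-/-, of Bcl2l11 (0.01), Bax (-0.02) and Bid (-0.34) in DN2 Arpp21-/-, and of Bcl2 (-0.14) and Bid (0.22) for the interaction. With voom weights they were Bcl2l1 (-0.08), Mcl1 (-0.25) and Bax (-0.01) in DN3, Bcl2l11 (0.01) in DN2 and Mcl1 (-0.07) for the interaction. On log2(TPM + 1) they were Bcl2l1 (-0.32) and Bax (-0.05) in DN3, Bcl2l1 (-0.41) and Bid (-0.41) in DN2 and Bcl2l1 (0.09) for the interaction. With the average length offset they were Bcl2l1 in DN3 (-0.09) and Bcl2l11 in DN2 (0.31), with the length trend offset Bax in DN3 (-0.08) and Mcl1 (0.32), Bcl2l11 (0.95) and Bbc3 (-0.21) in DN2, and with DESeq2 or its size factors Bcl2l11 in DN2 (0.05 in both). Leaving out 1 library in turn gave ranges over 0 in DN3 for Bcl2l1 (-0.05 to 0.15), Mcl1 (-0.29 to 1.22), Bax (-0.04 to 0.36), Bak1 (-0.20 to 0.38) and Bbc3 (-0.52 to 0.23). In DN2 they were those of Mcl1 (-0.69 to 0.20), Bcl2l11 (-0.16 to 0.20), Bax (-0.02 to 1.71), Bid (-0.35 to 0.81) and Bbc3 (-0.44 to 0.42). For the interaction they were those of Bcl2 (-0.34 to 2.32), Bax (-1.49 to 0.25), Bid (-1.02 to 0.14), Bad (-1.62 to 0.17) and Bbc3 (-0.56 to 0.33).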
